A study of Mus musculus with 24 samples.

Results

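Doublecortin (Dcx) and 35 further genes of neuroblasts and immature neurons were followed in sorted cells of the adult hippocampus of Notch2 CKO and WT mice. The 36 genes were taken by symbol from the 48321 symbols of the count tables, by a rule that uses no expression value. Reads of a gene were summed over the 4 sequencing runs of each pool, which are 2 libraries on 2 lanes each. Notch2 CKO pools came from Hes5::CreERT2, Rosa26R-CAG::GFP mice whose Notch2 alleles were flox/flox. WT pools came from mice with the same driver and reporter and Notch2 wt/wt. All animals were adult C57BL/6, all received tamoxifen for 5 days, and GFP+ cells were collected after a chase of 1 day. The Hes5 promoter drives the Cre, so the reporter marks cells that used this promoter at the time of tamoxifen, together with any cells they gave rise to by collection. There were 3 pools of each genotype, each pooled from several animals. The labels do not say whether pools shared animals, so a p-value here reflects variation among these pools only. The comparison asks whether genes of the neuronal lineage differ between animals with floxed and intact Notch2 in Hes5-expressing cells.

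In the dentate gyrus, radial glia-like stem cells give rise to intermediate progenitors, then to migrating neuroblasts and immature neurons, and at last to granule neurons. Notch receptors act through the DNA-binding protein Rbpj on genes such as Hes5, whose products repress proneural factors and hold cells in the stem cell state. Neuroblasts are recognised by proteins of a moving cell: microtubule proteins such as Dcx, growth cone proteins, and the adhesion molecule Ncam1 with its polysialic acid chains.

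The promoters of Dcx and Nhlh1 are shown because Dcx is the classical neuroblast marker and because Nhlh1 was the one gene of the set with every CKO pool above every WT pool. Each is the stretch of 250 bases before a RefSeq transcript start on GRCm38.p6, read 5′ to 3′ on the gene's own strand, and for Dcx the first of 2 listed starts was taken. The Dcx stretch is chrX:143933220-143933469 and the Nhlh1 stretch is chr1:172057597-172057846, both on the minus strand. Capitals mark matches, on either strand, to CAGATG and CAGCTG, E-boxes of the type bound by proneural factors, and to TGGGAA, the core of the Rbpj motif.
Dcx: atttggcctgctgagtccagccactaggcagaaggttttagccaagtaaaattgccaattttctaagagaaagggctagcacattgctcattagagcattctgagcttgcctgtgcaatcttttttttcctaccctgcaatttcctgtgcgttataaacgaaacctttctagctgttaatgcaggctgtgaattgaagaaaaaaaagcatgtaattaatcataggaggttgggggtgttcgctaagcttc
Nhlh1: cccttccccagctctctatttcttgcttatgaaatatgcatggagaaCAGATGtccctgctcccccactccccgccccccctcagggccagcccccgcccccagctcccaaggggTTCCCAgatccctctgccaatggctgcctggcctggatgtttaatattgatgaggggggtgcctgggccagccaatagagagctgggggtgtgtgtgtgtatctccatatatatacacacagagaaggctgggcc
The Dcx stretch held none of these letters. The Nhlh1 stretch held CAGATG starting 203 bases before the start on the printed strand, and the Rbpj core on the opposite strand, printed as its complement TTCCCA, starting 135 bases before it, and the matches do not overlap. For 22 of the 36 genes, 33 RefSeq windows running from 250 bases before to 50 bases after a start were available. CAGATG was found in 6 of these 33 windows, against 17.2% of all 32851 windows, CAGCTG in 5 windows, against 16.3%, and TGGGAA in 5 windows, against 25.6%. These are letter matches only.

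Levels are given in CPM, read counts scaled to the reads in genes with TMM, which adjusts each pool for its composition. The deleted gene, Notch2, had 65.1, 116 and 121 CPM in CKO pools 1, 2 and 3, against 99.1, 146 and 302 CPM in WT pools 1, 2 and 3. The genotypes overlapped, and the log2 fold change of CKO over WT was -0.86 (SE 0.45, edgeR quasi-likelihood test, adjusted p = 0.790), or -0.29 without WT pool 3. Counts cover the whole gene and do not separate the floxed exons, so remaining reads do not measure recombination. Reads in genes numbered 41810239 to 53984963 per CKO pool and 40366579 to 52682485 per WT pool, so 1 read was worth 0.0175 to 0.0264 CPM. Markers of radial glia-like stem cells, the labelled cell type, summed to 10520 to 14970 CPM in CKO and 7880 to 12180 CPM in WT pools. Astrocyte markers summed to 19800 to 31590 CPM in CKO and 22880 to 23790 CPM in WT pools, and oligodendrocyte markers to 3475 to 5846 CPM in CKO and 2544 to 6843 CPM in WT pools. WT pools 1 and 3 stood apart most often: over all genes, WT pool 1 was the highest of the 6 pools for 25.0% and WT pool 3 for 24.5%, and WT pool 3 was the lowest for 28.8%. The 36 genes together took 0.199% to 0.243% of the reads in genes. In such bulk RNA, fewer cells of a type and less RNA per cell cannot be told apart.

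No gene of the neuroblast set passed the test for a difference between Notch2 CKO and WT pools. Of the 36 genes, 33 had enough reads to be tested, and Dlx2, Dlx5 and Dlx6 did not. edgeR called 0 of the 33 at an adjusted p under 0.05, with 0% of all 21477 genes called, and the smallest adjusted p in the set was 0.790. At an unadjusted p under 0.05, 0 of 33 passed, against 5.91% of all genes, and without WT pool 2 it was 5 of 33, against 10.4% of all genes. DESeq2 called 0 of the set (0.57% of all genes, or 0.608% when run on the filtered genes) and had 1, Bcl11b, at an unadjusted p under 0.05. The fold change was above 0 for 14 genes and below 0 for 19, where 47.2% of all genes tested were above 0. Its median was -0.08 on the log2 scale, against -0.06 over all genes tested. Non-overlapping pools were found for 2 of 33 genes, against 15.8% of all genes: Nhlh1 was higher and Tubb2b lower in CKO pools. That count was 11 without WT pool 2, 7 without WT pool 1, 5 without CKO pool 1 and 4 without CKO pool 3, where the share of all genes was 31.2%, 23.2%, 22.1% and 23.8% in that order.

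**Figure D1:**
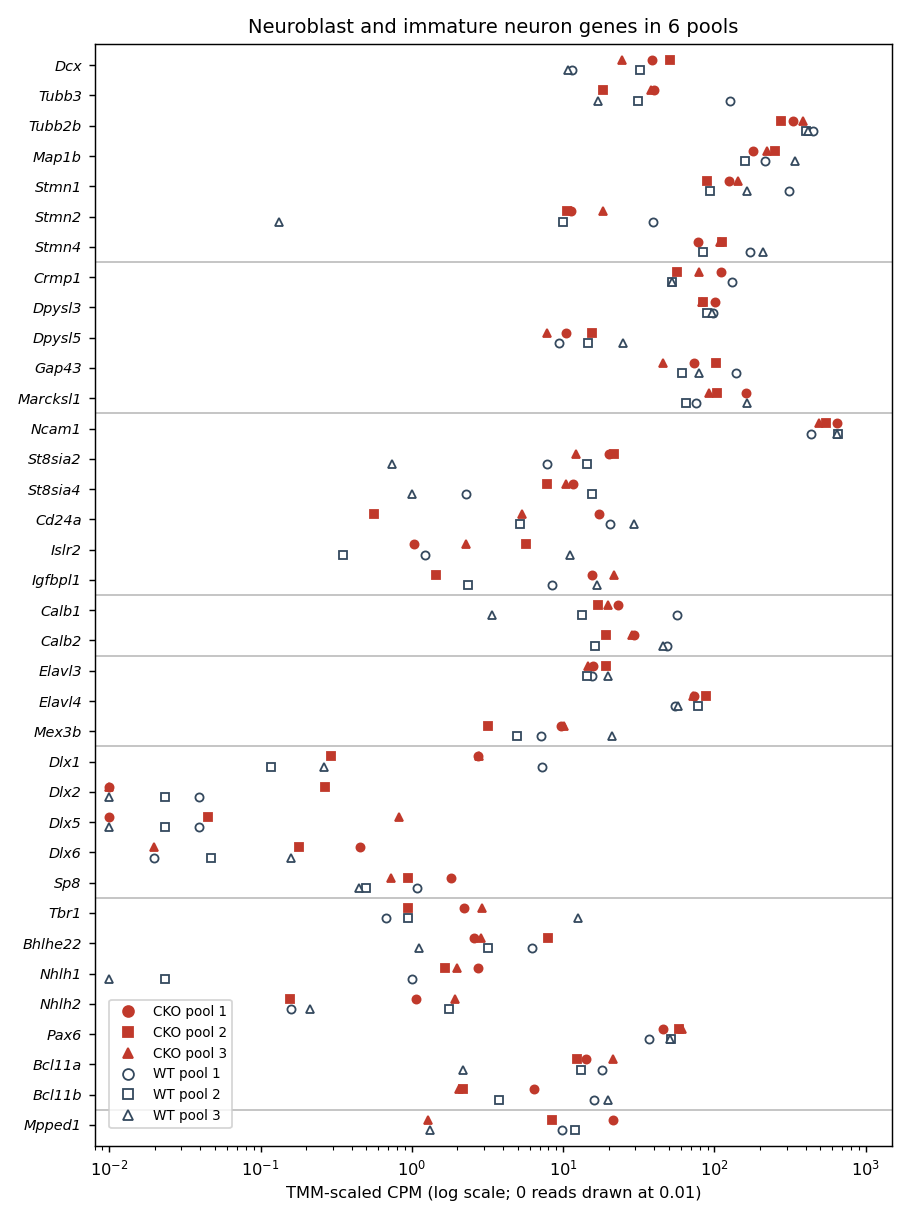
TMM-scaled CPM of the 36 genes (log axis) in each of 3 CKO pools (filled red) and 3 WT pools (open), grouped by role, with 0 reads drawn at 0.01 CPM. Filled and open points overlap for every tested gene except Tubb2b and Nhlh1.

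Levels covered a wide range. Averaged over the 6 pools, 6 genes had at least 100 CPM, 16 had between 10 and 100 CPM, 9 had between 1 and 10 CPM and 5 had less than 1 CPM. Per kilobase of exon, which allows levels of genes to be compared, Tubb2b led with 164 CPM per kb, followed by Stmn1 with 80.1, Marcksl1 with 68.8, Stmn4 with 66.4, Ncam1 with 65.7 and Gap43 with 54.8 CPM per kb. Dcx stood at 2.21 CPM per kb and St8sia2 at 2.38 CPM per kb, close to Elavl3 with 2.40 CPM per kb. As background, Ncam1 is carried by glia as well as by neurons.

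Of the microtubule genes, Dcx (chromosome X, 143855842 to 143933311, minus strand, GRCm38) encodes the microtubule-binding protein of migrating neuroblasts. It had 38.7, 50.5 and 24.6 CPM in CKO pools 1, 2 and 3, against 11.5, 32.0 and 10.7 CPM in WT pools 1, 2 and 3. CKO pools 1 and 2 were above every WT pool, and CKO pool 3 lay below WT pool 2, so the genotypes overlapped. The mean was 37.9 ± 13.0 CPM in CKO and 18.1 ± 12.1 CPM in WT pools (SD, n = 3 each). The log2 fold change was 1.07 (SE 0.54, 95% interval -0.20 to 2.33) and did not pass the edgeR test (adjusted p = 0.790; exact two-sided permutation test p = 0.2, where 0.1 is the smallest that 3 against 3 pools allow). Without WT pool 2 the log2 fold change was 1.82 (adjusted p = 0.469, edgeR).

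Tubb2b (chromosome 13, 34126748 to 34130466, minus strand), a beta-tubulin of young neurons, had 333, 276 and 386 CPM in CKO pools 1, 2 and 3, against 451, 405 and 413 CPM in WT pools 1, 2 and 3. Every CKO pool was below every WT pool. The mean was 331 ± 54.9 CPM in CKO and 423 ± 24.4 CPM in WT pools (SD, n = 3 each), and the log2 fold change of -0.35 (SE 0.20, interval -0.82 to 0.12) had an adjusted p of 0.794 in the edgeR test and an exact permutation p of 0.1. Tubb2b shares 36.9% of its transcript stretches of 50 bases with other genes, mostly with its paralog Tubb2a, so reads of the pair may have been placed on either. Tubb2a read 302, 280 and 352 CPM in CKO pools against 440, 359 and 395 CPM in WT pools, and with the reads of both summed the log2 fold change was -0.35 (SE 0.19). With upper-quartile scaling, or in the second library of each pool alone, the Tubb2b values of the genotypes overlapped.

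Tubb3 (chromosome 8, 123411424 to 123422015, plus strand) encodes the neuronal beta-tubulin detected by the Tuj1 antibody. It had 39.8, 18.3 and 38.2 CPM in CKO pools 1, 2 and 3, against 127, 31.4 and 16.9 CPM in WT pools 1, 2 and 3. WT pool 1 stood far above all others and WT pool 3 was the lowest of the 6. The log2 fold change was -0.86 (SE 0.74) over all pools and 0.43 without WT pool 1, so its sign rested on that pool.

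Stmn1 (chromosome 4, 134468320 to 134473843, plus strand) encodes stathmin, which destabilises microtubules. It had 124, 88.8 and 142 CPM in CKO pools 1, 2 and 3, against 310, 93.7 and 165 CPM in WT pools 1, 2 and 3. WT pool 1 was again the highest, and the WT range held CKO pools 1 and 3. The mean was 118.5 ± 27.3 CPM in CKO and 189.5 ± 110 CPM in WT pools (SD, n = 3 each), and the log2 fold change was -0.68 (edgeR adjusted p = 0.800, SE 0.44), or -0.11 without WT pool 1. Stmn1 shares 18.9% of its 50-base stretches with other genes, nearly all with the gene model Gm11223, and with the reads of both summed the log2 fold change was -0.70.

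The neuronal stathmin paralogs showed the same kind of overlap. Stmn4 ranged from 77.6 to 112 CPM in CKO and from 84.6 to 210 CPM in WT pools (log2 fold change -0.65, SE 0.36). Stmn2 ranged from 10.6 to 18.2 CPM in CKO pools, against 0.132 to 39.2 CPM in WT pools, where WT pool 3 held 5 reads and WT pool 1 held 1984. Map1b, a microtubule-associated protein of growing axons, ranged from 181 to 251 CPM in CKO and from 158 to 340 CPM in WT pools (log2 fold change -0.12, SE 0.31). Thus 6 of the 7 microtubule genes had a fold change below 0 and Dcx alone was above it, and none passed the test. Over all genes tested, 47.2% were above 0. Of the 6, Tubb3, Map1b and Stmn2 changed sign when single pools were left out.

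Among the growth cone and actin genes, 2 of 5 had a fold change above 0, with a median of -0.08 on the log2 scale. Marcksl1, which binds actin and calmodulin and had the highest level of the group per kilobase, read 161, 104 and 91.5 CPM in CKO pools 1, 2 and 3, against 75.9, 65.0 and 165 CPM in WT pools 1, 2 and 3. All CKO pools lay above WT pools 1 and 2, and WT pool 3 was the highest of all. The mean was 119 ± 37.3 CPM in CKO and 102 ± 54.7 CPM in WT pools (SD, n = 3 each; log2 fold change 0.22, SE 0.42). Gap43, a growth cone protein, ranged from 46.0 to 103 CPM in CKO and from 60.8 to 138.5 CPM in WT pools. The collapsin response mediators, which carry semaphorin signals to the cytoskeleton, were as variable: Crmp1 ranged from 56.8 to 110 CPM in CKO and from 52.4 to 130 CPM in WT pools. Dpysl5 ranged from 7.85 to 15.6 CPM in CKO and from 9.39 to 25.0 CPM in WT pools. Summed over libraries, their relative Dpysl3 gave 82.2 to 101 CPM in CKO and 89.0 to 97.9 CPM in WT pools (log2 fold change -0.08, SE 0.21, interval -0.58 to 0.42), and its sign turned to 0.02 with no scaling beyond total reads. Its value in WT pool 3 joins libraries of 196.5 and 29.0 CPM.

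Of the surface genes, Ncam1 (chromosome 9, 49502136 to 49798925, minus strand), the neural cell adhesion molecule, had the most reads of the whole set. It had 645, 548 and 494 CPM in CKO pools 1, 2 and 3, against 434, 653 and 642 CPM in WT pools 1, 2 and 3. The lowest pool and the highest pool were both WT. The mean was 562 ± 76.3 CPM in CKO and 577 ± 123 CPM in WT pools (SD, n = 3 each), and the log2 fold change was -0.04 (SE 0.23), with an interval of -0.58 to 0.51. With no scaling beyond total reads it was 0.06.

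The sialyltransferases St8sia2 and St8sia4 build the polysialic acid chains on Ncam1. St8sia2 had 20.1, 21.7 and 12.2 CPM in CKO pools 1, 2 and 3, against 7.88, 14.3 and 0.740 CPM in WT pools 1, 2 and 3. CKO pools 1 and 2 were the highest and WT pool 3 was the lowest, with CKO pool 3 below WT pool 2, which is the order of the 6 pools seen for Dcx. The log2 fold change of St8sia2 was 1.23 (SE 0.92, interval -0.92 to 3.39, edgeR adjusted p = 0.806; exact permutation p = 0.2). Within the first or the second libraries alone the pool orders of Dcx and St8sia2 differed. St8sia4 ranged from 7.81 to 11.6 CPM in CKO pools, against 1.00 to 15.4 CPM in WT pools (log2 fold change 0.68, SE 0.97, or 2.66 without WT pool 2).

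The remaining surface genes were low and uneven. Cd24a, a small glycoprotein anchored to the membrane and used to sort neuroblasts, ranged from 0.560 to 17.2 CPM in CKO and from 5.16 to 29.2 CPM in WT pools. Islr2, a transmembrane protein with leucine-rich repeats, ranged from 1.03 to 5.69 CPM in CKO and from 0.353 to 11.1 CPM in WT pools. Igfbpl1, a secreted protein of the insulin-like growth factor binding family, ranged from 1.45 to 21.6 CPM in CKO and from 2.35 to 16.8 CPM in WT pools. Their log2 fold changes were -1.24, -0.49 and 0.48, with SEs of 1.13, 1.28 and 1.03.

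**Figure D2:**
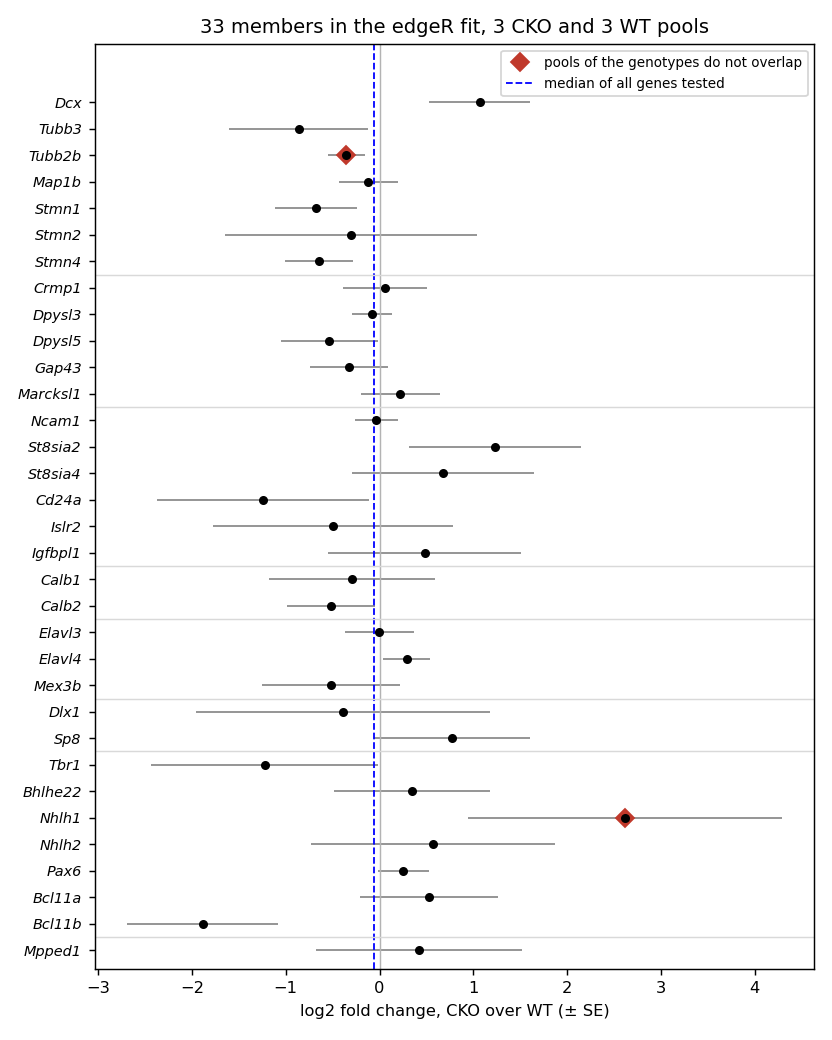
Log2 fold change of CKO over WT (point) with its standard error (bar) for the 33 tested genes, grouped by role, with the median of all tested genes as a dashed line. Diamonds mark Tubb2b and Nhlh1, whose pools did not overlap between genotypes, and the bars are longest for genes of low level such as Nhlh1 and Dlx1.

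Calb2 encodes calretinin, which marks immature granule neurons for a short time, and Calb1 encodes calbindin, which marks them once they mature. Calb2 had 29.4, 19.3 and 28.4 CPM in CKO pools 1, 2 and 3, against 48.7, 16.2 and 45.4 CPM in WT pools 1, 2 and 3. WT pools 1 and 3 were above every CKO pool and WT pool 2 below all of them. The means were 25.7 ± 5.56 CPM in CKO and 36.8 ± 17.9 CPM in WT pools (SD, n = 3 each; log2 fold change -0.52, SE 0.47). Calb1 had 23.1, 16.9 and 19.8 CPM in CKO pools 1, 2 and 3, against 56.7, 13.4 and 3.38 CPM in WT pools 1, 2 and 3. The CKO pools lay close together, inside the wide WT range, and the means were 19.9 ± 3.10 CPM in CKO and 24.5 ± 28.3 CPM in WT pools (SD, n = 3 each; log2 fold change -0.30, SE 0.88). Without WT pool 1 the log2 fold change of Calb1 was 1.27.

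The neuronal RNA-binding proteins Elavl3 and Elavl4, which stabilise neuronal transcripts, had similar pool sums in both genotypes. Elavl4 had 72.7, 87.6 and 72.2 CPM in CKO pools 1, 2 and 3, against 54.5, 77.9 and 57.6 CPM in WT pools 1, 2 and 3. WT pool 2 alone reached into the CKO range, and the means were 77.5 ± 8.71 CPM in CKO and 63.4 ± 12.7 CPM in WT pools (SD, n = 3 each; log2 fold change 0.29, SE 0.25, interval -0.30 to 0.88). Elavl3 averaged 16.5 ± 2.38 CPM in CKO and 16.5 ± 2.83 CPM in WT pools (SD, n = 3 each), but its interval still ran from -0.86 to 0.86 on the log2 scale. Single libraries differed more: in WT pool 3 Elavl4 had 107 CPM in the first and 25.9 CPM in the second library, and Elavl3 had 7.17 and 31.5 CPM. Elavl3 also had 7.57 and 28.8 CPM in the libraries of CKO pool 2. Mex3b, an RNA-binding protein with KH domains, ranged from 3.20 to 10.1 CPM in CKO and from 4.97 to 20.9 CPM in WT pools.

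The Dlx genes and Sp8 encode transcription factors of GABAergic neuroblasts from the ganglionic eminences, the source of the olfactory bulb lineage. They were low here. Dlx1 had 2.73, 0.291 and 2.77 CPM in CKO pools 1, 2 and 3, against 7.20, 0.118 and 0.264 CPM in WT pools 1, 2 and 3. In reads this was 156, 13 and 141 in CKO pools, against 365, 5 and 10 in WT pools, so CKO pools 1 and 3 and WT pool 1 carried most of it (log2 fold change -0.39, SE 1.57). Dlx1 overlaps the antisense gene Dlx1as over 335 exon bases, and the protocol does not mark strand, so reads there cannot be assigned to one of them. Dlx2, Dlx5 and Dlx6 together had 106 reads in the 6 pools, of which 42 were Dlx5 reads in CKO pool 3 and 26 were Dlx6 reads in CKO pool 1. Sp8 ranged from 0.726 to 1.80 CPM in CKO and from 0.449 to 1.09 CPM in WT pools. Of the other GABAergic markers, Slc32a1, Lhx6 and Sp9 stood below 1 CPM in all 6 pools.

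Of the other transcription factors, 5 of 7 had a fold change above 0, against 47.2% of all genes tested. Pax6, a homeodomain factor of stem and progenitor cells, was the most abundant, with 46.0, 57.9 and 61.1 CPM in CKO pools 1, 2 and 3, against 36.7, 51.5 and 50.6 CPM in WT pools 1, 2 and 3. CKO pool 1 lay below WT pools 2 and 3, and the means were 55.0 ± 7.95 CPM in CKO and 46.2 ± 8.30 CPM in WT pools (SD, n = 3 each; log2 fold change 0.25, SE 0.27).

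Nhlh1 (chromosome 1, 172052292 to 172057573, minus strand), a neuronal basic helix-loop-helix factor whose promoter is printed above, had 2.75, 1.66 and 2.002 CPM in CKO pools 1, 2 and 3, against 1.01, 0.0235 and 0 CPM in WT pools 1, 2 and 3. In reads this was 157, 74 and 102 in CKO pools, against 51, 1 and 0 in WT pools, or 333 reads in CKO and 52 in WT. Every CKO pool was above every WT pool, and WT pool 1 held nearly all of the WT reads. The mean was 2.14 ± 0.558 CPM in CKO and 0.343 ± 0.575 CPM in WT pools (SD, n = 3 each). The fitted log2 fold change of 2.62 (SE 1.67, interval -1.32 to 6.56) depends on how counts near 0 are treated, and it did not pass the edgeR test (adjusted p = 0.799; exact permutation p = 0.1). Its paralog Nhlh2 ranged from 0.157 to 1.94 CPM in CKO and from 0.158 to 1.77 CPM in WT pools, with complete overlap.

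Bcl11b, a zinc finger factor of granule and projection neurons, had the smallest unadjusted p of the set and is described for that reason, after its values were seen. It had 6.44, 2.19 and 2.06 CPM in CKO pools 1, 2 and 3, against 16.1, 3.77 and 19.8 CPM in WT pools 1, 2 and 3. CKO pools 2 and 3 were below every WT pool, and CKO pool 1 lay above WT pool 2. The log2 fold change was -1.89 (SE 0.80, unadjusted p = 0.0504, adjusted p = 0.790, edgeR). The value of WT pool 3 rested on its second library, with 9 reads (0.581 CPM) in the first and 739 reads (36.7 CPM) in the second, and in the first libraries WT pool 3 was the lowest of the 6 pools. Its paralog Bcl11a ranged from 12.4 to 21.2 CPM in CKO and from 2.19 to 18.0 CPM in WT pools (log2 fold change 0.52, SE 0.73, or 0.03 without WT pool 3). Tbr1, a T-box factor of glutamatergic neurons, ranged from 0.940 to 2.91 CPM in CKO and from 0.671 to 12.6 CPM in WT pools. Bhlhe22, a basic helix-loop-helix factor of neurons, ranged from 2.56 to 7.95 CPM in CKO and from 1.11 to 6.18 CPM in WT pools.

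Mpped1 had 21.3, 8.39 and 1.28 CPM in CKO pools 1, 2 and 3, against 9.89, 11.9 and 1.32 CPM in WT pools 1, 2 and 3. Pool 3 was the lowest of both genotypes and the ranges overlapped throughout (log2 fold change 0.42, SE 1.10).

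The spread between pools was larger in WT for most genes of the set. The SD of log2 CPM over the pools was larger in WT than in CKO for 27 of the 36 genes, with a median SD of 0.486 in CKO and 0.881 in WT pools. The same held over all genes, where the SD was larger in WT for 73.5% of the 21477 genes tested, with medians of 0.411 in CKO and 0.740 in WT pools. WT pool 1 was the highest of the 6 pools for 9 of 33 genes and WT pool 3 for 10, and WT pool 3 was also the lowest for 10. These counts lie near the shares over all genes given above.

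Each pool had 2 libraries, and the labels do not say whether these came from separate cDNA, so what their difference measures is not known. For genes of the set above 50 CPM the median difference between libraries of a pool was 0.449 on the log2 scale (all genes 0.542), and 6.06% of the pairs differed more than 4-fold (all genes 4.98%). For genes between 1 and 10 CPM the median difference was 1.54 (all genes 1.08), and 35.2% of the pairs differed more than 4-fold (all genes 28.9%). In WT pool 3 Tbr1 had 472 reads in the first library and 3 in the second. In the same pool Crmp1 had 40 reads in the first library and 1956 in the second, Dpysl5 had 12 and 935, and Tubb3 had 16 and 623. Uneven libraries were not confined to 1 pool or genotype: Igfbpl1 had 59 and 829 reads in CKO pool 1, and Calb1 had 39 and 716 reads in CKO pool 2.

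**Figure D3:**
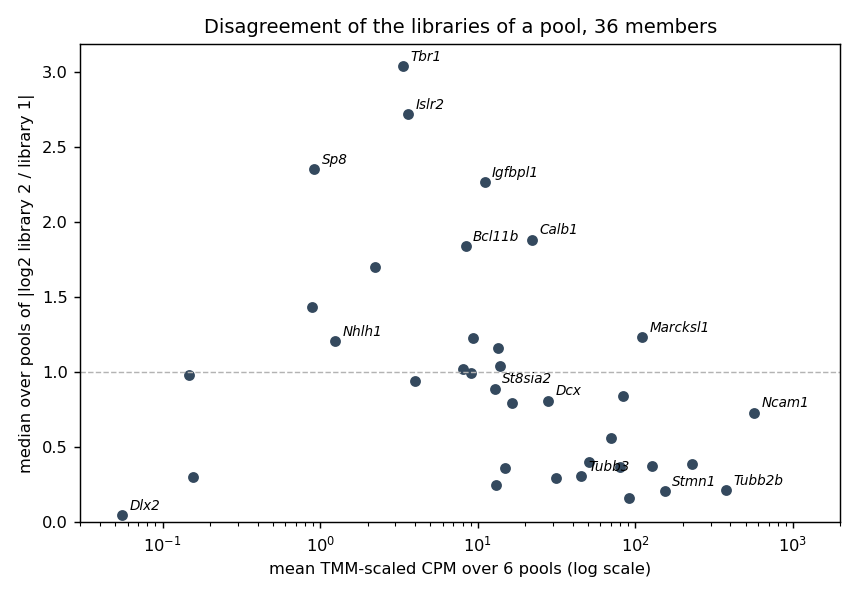
Median over the 6 pools of the absolute log2 ratio of the second to the first library (after adding 0.1 CPM) against the mean level in CPM (log axis) for the 36 genes. Libraries differed most for low genes such as Tbr1, Islr2 and Sp8, and little for Tubb2b and Stmn1, while Marcksl1 and Ncam1 differed more than the other genes with at least 100 CPM.

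For the genes that the comparison turns on, the libraries gave the following. Dcx had 24.9, 62.2 and 24.3 CPM in the first libraries of CKO pools 1, 2 and 3, against 4.32, 31.4 and 4.78 CPM in those of WT pools 1, 2 and 3. In the second libraries it had 50.01, 40.7 and 24.5 CPM in CKO pools, against 16.3, 32.3 and 16.5 CPM in WT pools. In both sets WT pool 2 stood at the level of the CKO pools, and the other WT pools stood below all of them. For Nhlh1 the first libraries of CKO pools 1, 2 and 3 had 2.65, 0.148 and 0.341 CPM and the second ones 2.74, 2.92 and 3.37 CPM. In WT pool 1 Nhlh1 had 0.342 CPM in the first library and 1.46 CPM in the second, and the other WT libraries had at most 0.0506 CPM. The genotypes therefore overlapped for Nhlh1 in the first libraries and not in the second ones.

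**Figure D4:**
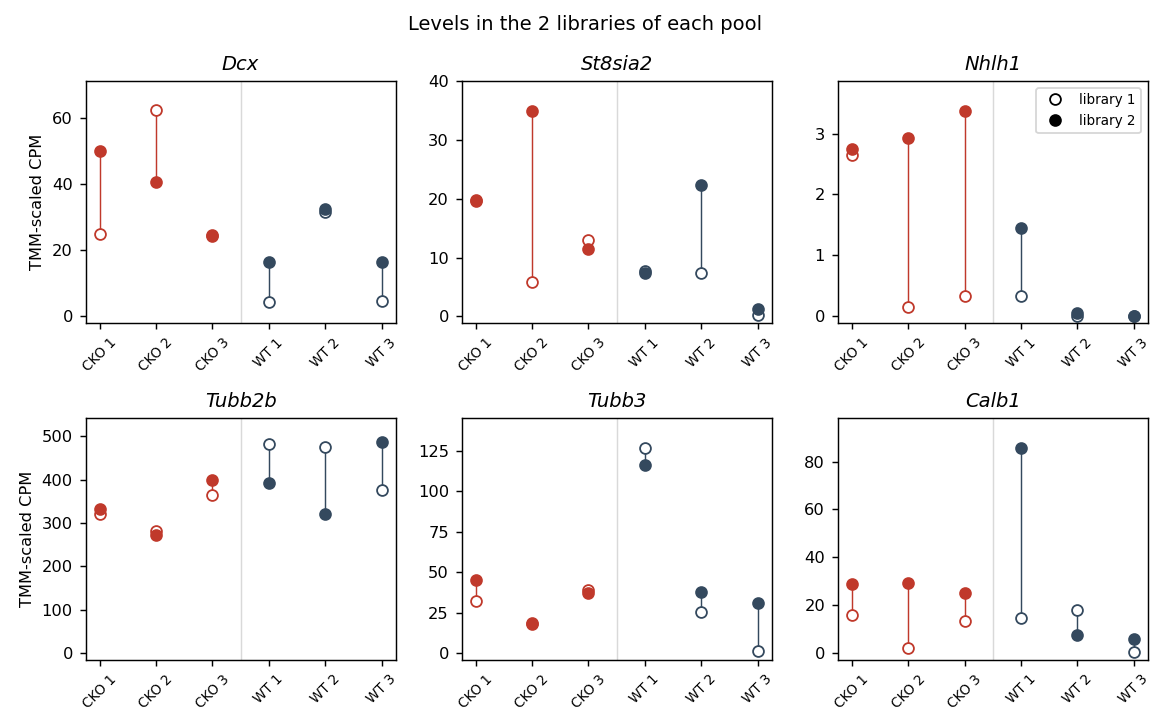
TMM-scaled CPM of Dcx, St8sia2, Nhlh1, Tubb2b, Tubb3 and Calb1 in the first (open) and second (filled) library of each CKO pool (red) and WT pool (blue), with a line joining the libraries of a pool. Dcx is low in both libraries of WT pools 1 and 3, Nhlh1 rests on the second libraries in CKO pools 2 and 3, and Calb1 in WT pool 1 rests on its second library.

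Genes of neighbouring stages were set beside the 36, from 12 marker lists of which none had a gene past the adjusted threshold. Of 40 further neuroblast and young neuron genes, 25 had a fold change below 0 and 15 above it, with a median of -0.26 on the log2 scale. In that list 7 genes were lower at an unadjusted p under 0.05, against 2.9% of all genes, and 1 was higher, against 3.01%. Pools did not overlap for 8 genes lower in CKO, against 8.17% of all genes, and for 1 higher, against 7.67%. The count of 7 was 1 without CKO pool 2 (all genes 1.62%), 3 without CKO pool 3 (0.958%), 4 without WT pool 1 (2.26%) and 10 without WT pool 2 (3.73%). It was 2 in the second libraries alone (1.57%). The count of 8 was 14 without WT pool 2 (all genes 13.6%) and 2 in the second libraries alone (4.97%).

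The smallest p-values of that list belonged to Nnat and Sox11. Nnat, which encodes the small membrane protein neuronatin, had 524, 427 and 510 CPM in CKO pools 1, 2 and 3, against 757, 697 and 767 CPM in WT pools 1, 2 and 3 (log2 fold change -0.60, SE 0.18, edgeR unadjusted p = 0.0116, adjusted p = 0.790). Sox11, a transcription factor of neuroblasts, had 103, 149 and 160 CPM in CKO pools, against 73.1, 48.6 and 88.4 CPM in WT pools (log2 fold change 0.97, SE 0.31, unadjusted p = 0.0152, adjusted p = 0.790). In neither gene did CKO and WT pools overlap, Nnat lying below WT and Sox11 above it in CKO pools.

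In the lists on either side of the neuroblast stage no gene passed the adjusted threshold. Of 19 tested genes of intermediate progenitors, 8 were above 0 and 11 below, with a median of -0.05 on the log2 scale. Their summed level was 461 to 592 CPM in CKO and 417 to 794 CPM in WT pools. Every CKO pool was above every WT pool for 1 of them, Neurog1, against 7.67% of all genes. Neurog1 had 1.24 to 2.48 CPM in CKO and 0 to 0.691 CPM in WT pools. Of 14 granule neuron genes, 10 were below 0 and 4 above it, with a median of -0.44. The list summed to 879 to 1186 CPM in CKO and 1058 to 3806 CPM in WT pools. Calm2, a broadly expressed calmodulin gene, made up 83.4% of that sum, and the other granule neuron genes summed to 164 to 248 CPM in CKO and 170.5 to 405 CPM in WT pools. Of 20 mature neuron and synapse genes, 17 were below 0, with a median of -0.47, and the list summed to 1162 to 1284 CPM in CKO pools, against 1893, 1235 and 1910 CPM in WT pools 1, 2 and 3. Nefm had the smallest p of this list, with 0.275 to 2.48 CPM in CKO and 11.1 to 15.4 CPM in WT pools. Its log2 fold change was -3.00 (SE 0.84, edgeR unadjusted p = 0.00903, adjusted p = 0.790). WT pools 1 and 3, which held the most mature neuron RNA, were both above every CKO pool for Tubb2b, Stmn1, Stmn4, Cd24a, Calb2 and Bcl11b. The same pools were both below every CKO pool for Dcx, St8sia2, St8sia4, Elavl4 and Nhlh1. The part of mature neuron RNA in these values was not tested. Of 18 cell cycle genes, 12 were above 0, with a median of 0.45, and the list summed to 512 to 685 CPM in CKO and 329 to 581 CPM in WT pools. Among them 4 were higher at an unadjusted p under 0.05, against 3.01% of all genes, and 5 had every CKO pool above every WT pool (Ccne1, Bub1, Mki67, Top2a and Mcm6), against 7.67%. In the other direction 1 was lower at an unadjusted p under 0.05, against 2.9% of all genes. This was Birc5, with 12.5 to 18.6 CPM in CKO and 15.6 to 63.8 CPM in WT pools (log2 fold change -1.39, SE 0.53). For 0 genes was every CKO pool below every WT pool, against 8.17%. The count of 4 was 2 without CKO pool 3 and 1 in the second libraries alone. The count of 5 was 2 in the second libraries alone and 9 without WT pool 1. Without WT pool 1, pools also did not overlap for more of all genes, as given above. Shares of all genes in the upward direction alone are not given for these settings. The smallest p of the cell cycle list belonged to Ccne1, a cyclin of the entry into S phase, with 7.58, 7.14 and 7.97 CPM in CKO pools 1, 2 and 3, against 2.15, 1.60 and 0.793 CPM in WT pools 1, 2 and 3 (log2 fold change 2.32, SE 0.62, edgeR unadjusted p = 0.00687, adjusted p = 0.790). Of the glial and vascular lists, oligodendrocyte precursor markers summed to 1429 to 4086 CPM in CKO and 2321 to 3594 CPM in WT pools. Microglial markers summed to 312 to 834 CPM in CKO and 356 to 449 CPM in WT pools, and endothelial and mural markers to 69.5 to 124 CPM in CKO and 54.0 to 180 CPM in WT pools.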

How the data were processed

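RNA of 6 pools of sorted GFP+ hippocampal cells, 3 CKO and 3 WT, was made into cDNA with Smart-Seq2 and into Nextera XT libraries, which do not mark strand, per the labels' protocols. The authors deposited raw read counts per gene symbol for 24 runs. Per the submitters' processing notes, they used Bowtie2 and HTSeq with GRCm38; of versions, annotation and counting mode, none is given in the sources used here. All tables hold the same 48321 symbols and 5 summary lines, which entered neither the library sizes nor the tests. Reads outside genes made up 16.0% to 35.3%, ambiguous reads 2.51% to 3.43% and unaligned reads 11.2% to 21.7% per pool. The lines for multiple alignments and for low quality held 0 reads.

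Lanes agreed within sampling noise (chi-square over its degrees of freedom 0.986 to 1.01, smallest p = 0.149), and lanes and libraries were summed to pools. The genotypes were tested in edgeR 4.0.16 (R 4.3.3): filterByExpr by genotype left 21477 genes, with TMM scaling, a robust quasi-likelihood test, no covariate, and Benjamini-Hochberg adjustment over all genes at 0.05. Single genes were also compared by exact two-sided permutation of the pools' log2 CPM with a prior count of 2. Alternatives used DESeq2 1.42.0, limma 3.58.1 (voom), other scalings and filters, single libraries, a replicate block and each pool left out. The edgeR, DESeq2 and voom steps were tested on simulated data, with changes placed only in genes averaging above 10 CPM. Recovery for genes below that level, among them Nhlh1 and Bcl11b, was not simulated. At the dispersion of these pools edgeR recovered 47 of 100 simulated 4-fold changes and 83 of 100 16-fold changes, with 6 false calls. DESeq2 recovered 78 and 99 of them with 133 false calls, and voom 37 and 81 with 3 false calls. A real change of 4-fold could thus be missed by edgeR here. Positions, exon lengths and shared 50-base stretches came from GENCODE M21, promoters from RefSeq. Depth limits counting error only, since reads carry no molecular identifiers, and the spread between pools was larger (biological coefficient of variation 0.725).

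Values per pool are given for Dcx, Tubb3, Calb1, Calb2, Ncam1 and Stmn1, for genes with non-overlapping pools and for the gene of each role with the highest CPM per kilobase; St8sia2 and Bcl11b were added after their values were seen. The 36 genes, the lists and this rule were chosen with earlier results of these data known.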

Additional observations from a re-analysis of the deposited data

How the results depend on the processing

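No alternative called a gene of the set. DESeq2 called 237 genes in all, and 129 when run on the filtered genes, and each other alternative called 0. Over the alternatives the 33 genes gave 559 fold changes, of which 491 kept their direction, 68 turned and none passed the adjusted threshold (smallest adjusted p 0.32). Dcx, Tubb2b, Stmn1, Stmn4, St8sia2, St8sia4, Cd24a, Elavl4, Nhlh1, Bcl11a and Bcl11b kept their direction under every alternative run. The number of genes with an unadjusted p under 0.05 was 1 (Bcl11b) with RLE size factors, upper-quartile scaling, no filter, a stricter filter, DESeq2 or DESeq2 on filtered genes, and 1 (Nhlh1) with voom. In the main fit 5.91% of all genes passed, and the shares under these alternatives are not given. The number was 0 to 5 when each pool was left out, 5 being without WT pool 2, where 10.4% of all genes passed. The number whose pools did not overlap was 1 (Nhlh1) with upper-quartile scaling or the second libraries alone, and 2 to 11 when each pool was left out. In the main fit 15.8% of all genes did not overlap. The 11 was without WT pool 2, which had the largest of the shares of all genes given above for pools left out. The median was 0.17 with voom and -0.17 to 0.12 when each pool was left out.

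The shared pool numbers did not pair the samples: deviations from the genotype means correlated at 0.056, 0.020 and -0.029 for pools 1, 2 and 3. With the replicate block, 3 genes (Dcx, Cd24a and Nhlh1) had an unadjusted p under 0.05 (all genes 4.14%), the median was 0.18, and log2 fold changes turned to 0.80 for Stmn2, 0.22 for Islr2, 0.50 for Calb1, 0.0031 for Elavl3 and 1.09 for Dlx1. The block called no gene.

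Voom turned Map1b to 0.13, Stmn2 to 0.66, Islr2 to 1.29, Calb1 to 0.31, Calb2 to 0.0614, Elavl3 to 0.0795, Mex3b to 0.17, Dlx1 to 1.90, Tbr1 to 0.67 and Mpped1 to -0.18. The first libraries alone turned Map1b to 0.49, Stmn2 to 0.12, Dpysl5 to 1.52, Ncam1 to 0.26, Islr2 to 0.44, Igfbpl1 to -0.60, Mex3b to 0.60, Dlx1 to 0.93 and Bhlhe22 to -0.0589. The second libraries alone turned Crmp1 to -0.28, Dpysl3 to 0.46, Elavl3 to 0.11, Sp8 to -0.63, Tbr1 to 0.75, Pax6 to -0.0162 and Mpped1 to -0.29. With no scaling beyond total reads, Dpysl3 turned to 0.0181, Ncam1 to 0.0601 and Elavl3 to 0.10. Elavl3, at -0.0008, also turned to 0.0018 with RLE, 0.0327 with upper-quartile scaling, 0.0174 with no filter, 0.0134 with the stricter filter, 0.0009 with DESeq2 and 0.0019 with DESeq2 on filtered genes. Leaving out each pool gave -1.30 to 0.43 for Tubb3, -0.30 to 0.22 for Map1b, -0.89 to 1.41 for Stmn2, -0.21 to 0.66 for Crmp1, -0.17 to 0.0155 for Dpysl3, -0.64 to 0.0896 for Gap43, -0.0501 to 0.75 for Marcksl1, -0.19 to 0.11 for Ncam1, -1.35 to 1.90 for Islr2, -0.0655 to 1.24 for Igfbpl1, -0.82 to 1.27 for Calb1, -0.12 to 0.14 for Elavl3, -0.83 to 0.34 for Mex3b, -0.93 to 3.34 for Dlx1, -1.73 to 1.32 for Tbr1, -0.37 to 1.05 for Bhlhe22, -0.17 to 2.56 for Nhlh2 and -0.67 to 1.00 for Mpped1. Among genes that kept their sign it gave 0.80 to 1.82 for Dcx, -0.94 to -0.11 for Stmn1, -0.89 to -0.38 for Stmn4, -0.84 to -0.0961 for Dpysl5, 0.69 to 2.14 for St8sia2, 0.18 to 2.66 for St8sia4, -2.62 to -0.69 for Cd24a, 2.03 to 7.19 for Nhlh1, 0.0341 to 1.08 for Bcl11a and -2.62 to -1.48 for Bcl11b. The cause of these moves was not tested.

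The counts for the further neuroblast and young neuron genes, an alternative analysis chosen after seeing the data, were 2 and 2 in the second libraries alone, and 1 to 10 and 7 to 14 when each pool was left out. Those for the cell cycle genes, likewise chosen after seeing the data, were 1 and 2 in the second libraries alone, and 2 to 6 and 5 to 9 when each pool was left out. The shares of all genes also changed with the pool left out, so these ranges do not describe the lists alone. DESeq2 on filtered genes and the summing of paralog reads were also chosen after seeing the data.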
